A study of Mus musculus with 38 samples.

Results

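Melanocytes sorted from the dorsal skin of 56-day-old (P56) mice were compared between *Nras* mutant and wild type animals, with 2 bulk RNA sequencing libraries of each genotype out of 38 libraries in the series. The mutant mice express an oncogenic *Nras* from the tyrosinase (*Tyr*) enhancer and promoter, which is active in cells of the melanocyte lineage, and develop pigmented nevi from birth. For the sort, all mice also carried *Tyr-CreERT2* and a tdTomato reporter and were given tamoxifen, so that the controls differ from the mutants in the *Nras* transgene, and tdTomato+ cells of the melanocyte lineage were collected. The labels themselves say only mutant or wild type, and each group has 2 libraries here; the methods speak of biological replicates of sorted cells, in larger number, without saying whether each came from a different mouse. Genes were taken from the melanocyte table of 22282 genes, of which 17324 are protein coding, and 12440 protein-coding genes had 1 FPKM or more in at least 2 of the 4 P56 libraries. FPKM is the number of read fragments scaled to transcript length and library size. Of the 12440 genes, 651 passed through the mutant libraries alone and 592 through the wild type libraries alone. A gene that passed through 1 genotype alone could change in 1 direction only. Wild type melanocytes of postnatal day 30 (P30; 2 libraries) are given side by side where they help to read a level. Wild type hair follicles grow at P30 (anagen) and rest at P56 (telogen). In mutant skin the paper reports many follicles in ectopic anagen at P56. The P56 groups thus differ in hair cycle phase as well as in genotype, and the 2 cannot be told apart here.

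Melanocytes arise from the neural crest and make melanin in lysosome-related organelles, the melanosomes. In mouse skin most of them live in the hair follicle: melanocyte stem cells sit in the resting follicle, and their pigment-making progeny fill the bulb of the growing follicle. MITF, a basic helix-loop-helix factor, binds the M-box (TCATGTG) in promoters of pigment enzymes such as tyrosinase. Oncogenic NRAS signals through RAF, MEK and ERK, and in melanocytes it can end in a durable arrest called oncogene-induced senescence, in which cells secrete cytokines, growth factors and proteases (the senescence-associated secretory phenotype, SASP). Cell division genes share promoter elements as well, the CHR (TTTGAA) and CCAAT boxes, which serve the DREAM and NF-Y complexes.

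The promoters of 3 pigment genes and 3 mitosis genes that rose in the mutant are shown here because these 2 groups moved together. Each window runs from 250 bases before to 50 bases after the RefSeq start site on GRCm38.p6 and is read 5′ to 3′ along the gene. In the first 3, capitals mark TCATGTG, the M-box:
Tyr chr7:87493463-87493762 (minus strand): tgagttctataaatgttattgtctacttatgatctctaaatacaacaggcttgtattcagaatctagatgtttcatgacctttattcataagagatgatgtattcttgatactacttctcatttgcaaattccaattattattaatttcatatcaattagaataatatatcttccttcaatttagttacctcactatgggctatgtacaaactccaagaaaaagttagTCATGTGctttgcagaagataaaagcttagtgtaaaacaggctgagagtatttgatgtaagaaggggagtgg
Tyrp1 chr4:80833963-80834262 (plus strand): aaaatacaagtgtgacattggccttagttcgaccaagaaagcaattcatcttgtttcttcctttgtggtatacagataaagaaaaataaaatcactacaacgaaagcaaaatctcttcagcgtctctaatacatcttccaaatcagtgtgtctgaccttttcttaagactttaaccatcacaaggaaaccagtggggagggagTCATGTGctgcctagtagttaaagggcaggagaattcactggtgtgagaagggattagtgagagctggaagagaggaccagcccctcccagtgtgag
Mc1r chr8:123406832-123407131 (plus strand): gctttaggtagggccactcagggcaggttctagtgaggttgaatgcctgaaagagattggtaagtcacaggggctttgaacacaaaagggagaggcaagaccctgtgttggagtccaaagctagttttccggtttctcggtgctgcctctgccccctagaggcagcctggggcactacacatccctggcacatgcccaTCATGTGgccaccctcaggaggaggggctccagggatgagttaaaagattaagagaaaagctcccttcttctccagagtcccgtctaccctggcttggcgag
In the next 3, capitals mark TTTGAA or CCAAT on either strand:
Ccnb2 chr9:70421505-70421804 (minus strand): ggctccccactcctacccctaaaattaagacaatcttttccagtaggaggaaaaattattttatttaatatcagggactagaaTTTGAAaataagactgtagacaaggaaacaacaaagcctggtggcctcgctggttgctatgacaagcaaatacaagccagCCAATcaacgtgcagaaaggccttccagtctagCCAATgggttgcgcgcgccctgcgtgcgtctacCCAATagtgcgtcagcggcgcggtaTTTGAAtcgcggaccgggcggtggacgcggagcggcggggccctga
Cdc20 chr4:118437294-118437593 (minus strand): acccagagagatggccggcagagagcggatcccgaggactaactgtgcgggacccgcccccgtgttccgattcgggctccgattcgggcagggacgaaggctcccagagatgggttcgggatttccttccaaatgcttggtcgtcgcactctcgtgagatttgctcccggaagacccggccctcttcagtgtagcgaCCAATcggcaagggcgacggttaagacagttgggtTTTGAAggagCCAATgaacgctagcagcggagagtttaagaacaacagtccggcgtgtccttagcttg
Plk1 chr7:122159185-122159484 (plus strand): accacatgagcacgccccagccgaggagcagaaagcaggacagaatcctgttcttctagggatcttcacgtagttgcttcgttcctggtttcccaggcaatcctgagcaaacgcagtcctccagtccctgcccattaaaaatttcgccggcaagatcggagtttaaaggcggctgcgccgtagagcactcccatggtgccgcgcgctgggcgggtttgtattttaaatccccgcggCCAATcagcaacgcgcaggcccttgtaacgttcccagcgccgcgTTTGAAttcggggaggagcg
Counted in bases from the start site, the M-box begins at −22 in *Tyr*, −47 in *Tyrp1* and −52 in *Mc1r*. *Dct*, a pigment enzyme whose change was under 2-fold, held 2 matches as well, at −151 and, on the other strand, at −232. A match is a string of letters and not evidence of binding.

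Motifs were counted on both strands, and an overlap of one with another was not excluded. RefSeq windows were found for 9392 tested symbols. TCATGTG lay in the windows of 8 of the 19 melanin and melanosome genes with a window (42.1%) and of 253 of all 9392 genes (2.69%). TTTGAA lay in 28 of 36 mitosis genes (77.8%) and in 14.2% of all genes, and CCAAT in 27 of those 36 (75%) and in 42.6% of all genes. Among the genes that were higher in the mutant at large, 3.96% held TCATGTG and 16% held TTTGAA, and among those that were lower 2.30% and 14.8%.

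The libraries agreed closely within each group. Across the 12440 genes, log2(FPKM + 1) of the 2 libraries correlated at 0.995 in wild type and 0.996 in mutant P56 melanocytes (Pearson's r across genes, which are not independent replicates), and the median absolute difference between 2 libraries was 0.113 and 0.103. Between the genotypes it was 0.632. The FPKM sum ranged from 703179 to 922984 over the 6 melanocyte libraries; no read totals are given with these values, so the depth is unknown.

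A gene was called higher or lower where the change was 2-fold or more on the scale of FPKM + 1 and the adjusted p from limma was under 0.05. In the P56 mutant melanocytes 1963 genes were higher (15.8% of those tested) and 1913 were lower (15.4%), together 3876 or 31.2%. At any fold, 71.7% of the genes had an adjusted p under 0.05. Changes of 4-fold or more were found in 454 genes that were higher and 460 that were lower. The median change of all genes tested was 0.01 on the log2 scale. Every count of a gene list below is to be read beside the shares of 15.8% and 15.4% and this median. The share of genes whose mutant and wild type libraries did not overlap was 87.1%, so a lack of overlap alone sets no gene apart here. Against P30 wild type melanocytes, with the same mutant libraries, 2624 genes were called (21.1%), 12% higher and 9.11% lower, and 66.3% had an adjusted p under 0.05 at any fold. Of the 3876 called genes, 3342 were called in all 4 fits that left out 1 P56 library.

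**Figure D1:**
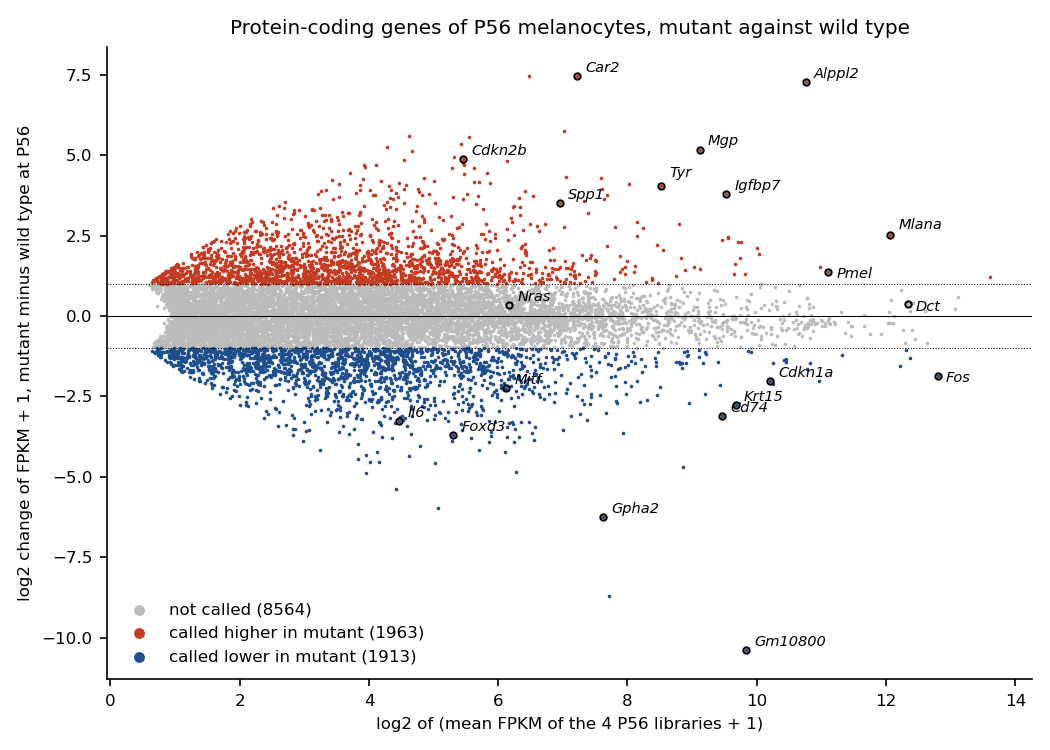
Log2 change of FPKM + 1 (mutant minus wild type at P56, vertical axis) against the log2 mean level of the 4 P56 libraries (horizontal axis) for 12440 protein-coding genes; red and blue points were called higher (1963) and lower (1913), and dotted lines mark 2-fold. *Alppl2*, *Car2* and *Cdkn2b* stand far above the line of no change, *Gm10800* and *Gpha2* far below it, and *Nras* and *Dct* lie inside the dotted lines.

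The largest rises were in genes of varied function. *Car2*, which encodes carbonic anhydrase 2 (ENSMUSG00000027562.12, chromosome 3, 14886273 to 14900770 on GRCm38), stood at 1.02 and 0.39 FPKM in wild type and at 297 and 295 FPKM in mutant libraries, a log2 change of 7.47 ± 0.16 (SE; adjusted p = 4e-08). *Alppl2*, an alkaline phosphatase of the placental type, was at 22.5 and 20.3 FPKM in wild type and at 3701 and 3190 FPKM in mutant cells. The remainder of the 12 largest rises were *Ccdc80*, *Olfm2*, *Mgp* (matrix Gla protein, an inhibitor of calcification), *Hpse* (heparanase, which cuts heparan sulfate), the CDK inhibitor *Cdkn2b*, the keratins *Krt25* and *Krt83*, and 3 members of the *Prl2c* family of prolactin-like hormones. *Mgp* went from 27.9 and 30.2 FPKM to 1106 and 1055 FPKM, and *Hpse* from 0.24 and 0.63 FPKM to 48.4 FPKM in each mutant library. *Prl2c2*, *Prl2c3* and *Prl2c5* were listed at 0 in both wild type P56 libraries and at 35.9 to 181 FPKM in the mutant ones. These 3 genes are near copies of each other, as are *Krt83* and its neighbours, so how reads were shared among the copies is uncertain.

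At P30 the wild type levels of several of these genes lay between the P56 groups. *Car2* was at 51.8 and 48.9 FPKM, *Alppl2* at 960.4 and 1010.4 FPKM and *Cdkn2b* at 29.4 and 26.4 FPKM. *Hpse* was at 89.0 and 102 FPKM, above the mutant. *Ccdc80*, at 17.1 and 14.0 FPKM at P30 and 4.33 and 3.25 FPKM at P56 in wild type cells, was at 258 and 251 FPKM in the mutant.

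Among the 12 largest falls, 5 were predicted genes that are made of, or lie in, repeats (*Gm10800*, *Gm10801*, *Gm21738*, *Gm10717* and *Gm21887*). Their summed level was 3188 and 3285 FPKM in wild type P56 libraries, 28.6 and 39.3 FPKM in mutant libraries and 80.2 and 70.4 FPKM in wild type P30 libraries. Reads of repeats cannot be placed with certainty, so these levels are uncertain. *Malat1*, a long non-coding RNA kept in the nucleus, moved with them, at 33113 and 32798 FPKM in wild type P56, 3551 and 3555 FPKM in mutant and 10937 and 9471 FPKM in wild type P30 cells. *Neat1*, another nuclear RNA, did not show that pattern, with 71.6 to 78.2 FPKM in wild type P56 and 93.6 to 99.0 FPKM in mutant libraries. RNA other than protein coding made up 5.97% and 6.09% of FPKM in the wild type P56 libraries and 1.56% and 1.59% in the mutant ones. *Malat1* is part of that share, and most of it in the wild type P56 libraries. The part of non-coding RNA in the results was not tested.

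The other falls of this size included *Gpha2*, a glycoprotein hormone subunit, which was at 399 and 379 FPKM in wild type and at 4.10 and 4.05 FPKM in mutant libraries (log2 change −6.26 ± 0.10, adjusted p = 1.1e-08). *B4galt5*, a galactosyltransferase of glycolipid synthesis, was at 146 and 153 FPKM against 4.16 and 4.15 FPKM. *Nr4a3*, a nuclear receptor induced at once by many stimuli, went from 60.6 and 61.9 FPKM to 1.38 and 1.90 FPKM. *Fam13a* and *Tgm5* (a transglutaminase of the epidermis) were also among them. The symbol *Ltbp4*, of a latent TGFβ binding protein, has 2 tested gene models, and the one that fell (ENSMUSG00000108715.1) was at 45.1 and 36.5 FPKM in wild type P56 cells and listed at 0 in the mutant and P30 libraries.

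*Nras* (ENSMUSG00000027852.14, chromosome 3, 103058285 to 103067914) was at 64.6 and 60.3 FPKM in wild type and at 76.5 and 81.3 FPKM in mutant P56 libraries. The mutant libraries were higher, but the change of 0.33 ± 0.08 on the log2 scale (adjusted p = 0.0045) did not reach 2-fold. No source used here says whether transgene reads were counted under the mouse gene, so this level cannot serve as a check of the genotype.

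Most pigment genes were higher in the mutant. Of 27 listed genes of melanin synthesis and the melanosome, 26 were tested, 16 were higher and 2 lower in the mutant, with a median log2 change of 1.44, beside 15.8% higher, 15.4% lower and a median of 0.01 over all genes. Tyrosinase, the rate-limiting enzyme of melanin synthesis (*Tyr*, ENSMUSG00000004651.5, chromosome 7, 87424771 to 87493512), was at 41.7 and 40.01 FPKM in wild type P56 libraries and at 706 and 675 FPKM in mutant ones. The mutant mean was 16.9-fold higher, a log2 change of 4.05 ± 0.07 (adjusted p = 1.6e-08). In P30 wild type melanocytes *Tyr* was at 479 and 509 FPKM, near the mutant level and far above the P56 wild type level.

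The 2 further enzymes of the pathway moved less. *Tyrp1*, tyrosinase-related protein 1 (chromosome 4, 80834123 to 80851719), went from 392 and 370.0 FPKM to 1688 and 1647 FPKM, a log2 change of 2.13 ± 0.07 (adjusted p = 1.9e-07). *Dct*, dopachrome tautomerase (chromosome 14, 118012790 to 118052244), was at 4523 and 4526 FPKM in wild type and at 5995 and 5620 FPKM in mutant libraries. *Dct* was thus abundant in both genotypes and its change of 0.36 ± 0.08 did not reach 2-fold. The order of the 3 enzymes by size of change was *Tyr*, *Tyrp1*, *Dct*.

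Structural and transport proteins of the melanosome followed *Tyr*. *Pmel*, which forms the fibrils on which melanin is laid down, rose from 1305 and 1156 FPKM to 3377 and 2960 FPKM, and *Mlana*, the melanosomal antigen MART-1, from 1333 and 1224 FPKM to 7430 and 7172 FPKM. *Oca2*, an anion channel of the melanosome, was at 2.55 and 1.67 FPKM in wild type and at 39.6 and 39.1 FPKM in mutant libraries (log2 change 3.71 ± 0.15, adjusted p = 3.4e-07). The transporters *Slc24a5* (115 and 97.6 against 800 and 761 FPKM) and *Slc45a2* (59.6 and 53.2 against 405 and 374 FPKM) and the receptor *Gpr143* (27.9 and 24.7 against 177 and 164 FPKM) rose by 2.65 to 2.87 on the log2 scale. In all of these genes both mutant libraries lay above both wild type ones, but the genotypes did not overlap in 87.1% of all genes tested.

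The receptor for melanocyte-stimulating hormone rose too. *Mc1r* (ENSMUSG00000074037.3, chromosome 8, 123407107 to 123410744) was at 9.20 and 8.32 FPKM in wild type P56, 103 and 91.6 FPKM in mutant and 71.8 and 80.2 FPKM in wild type P30 libraries, a log2 change of 3.33 ± 0.10 against P56 (adjusted p = 1.2e-07) and of 0.35 ± 0.10 against P30. *Mreg*, melanoregulin, which helps to pass melanosomes on to keratinocytes, was at 3.95 and 3.59 FPKM in wild type and 34.6 and 37.4 FPKM in mutant P56 cells. Its P30 level of 9.88 and 8.32 FPKM was well below the mutant. Of the 26 genes, 3 were higher and 1 lower than in P30 wild type cells, with a median log2 change of 0.24. Over all genes, 12% were higher and 9.11% lower in that comparison.

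The 2 genes of the list that fell serve melanosome movement and assembly. *Myo5a*, the myosin that holds melanosomes at the cell edge, was at 64.3 and 64.6 FPKM in wild type and at 28.5 and 29.7 FPKM in mutant libraries, and at 115 and 124 FPKM at P30. *Dtnbp1*, a subunit of the BLOC-1 complex of melanosome formation, was at 127 and 117 FPKM against 62.5 and 56.9 FPKM. Its change of −1.02 ± 0.08 is close to the threshold, and the call was lost without the second mutant library (−0.95), without the first wild type library (−0.96) and with quantile normalization (−0.93).

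**Figure D2:**
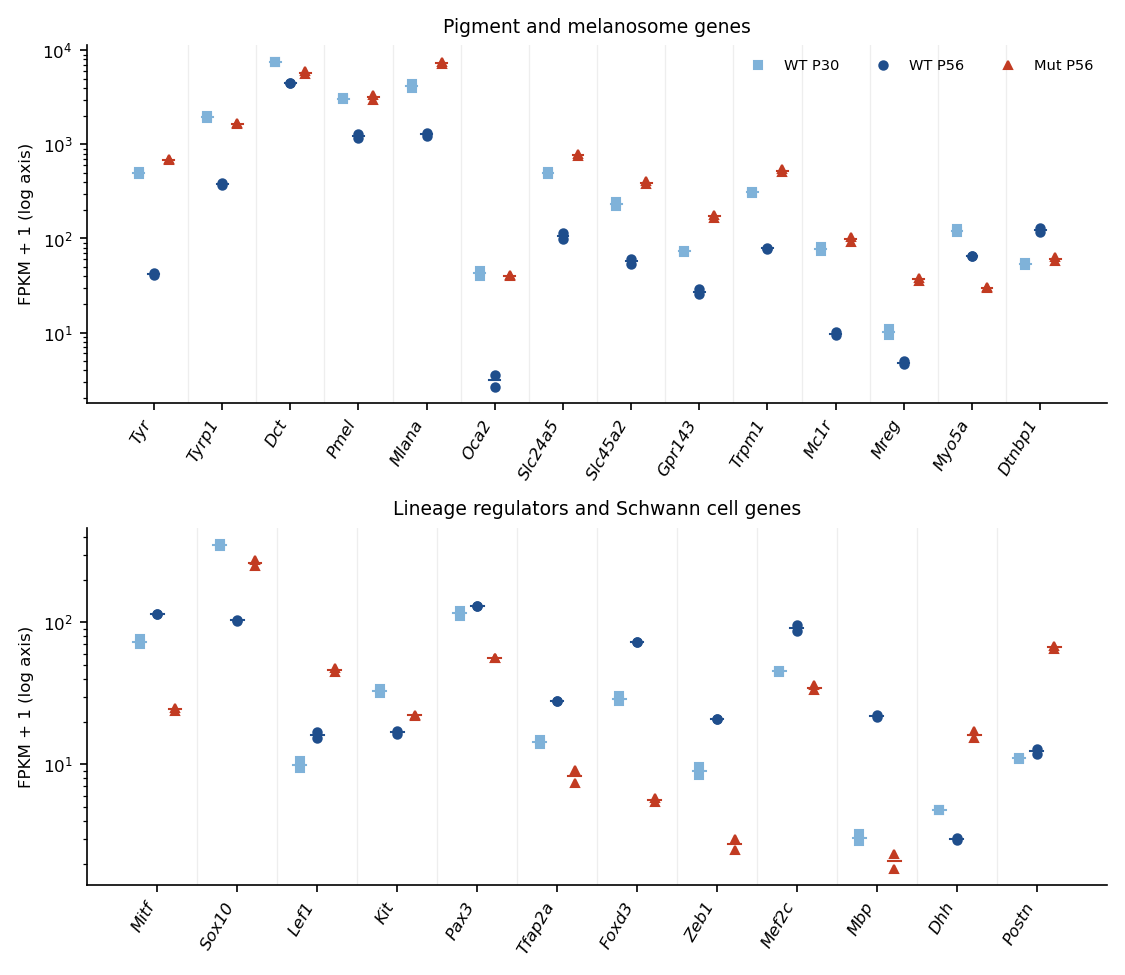
Level (FPKM + 1, log axis) of pigment genes (top) and of lineage regulators and Schwann cell genes (bottom) in each of the 6 melanocyte libraries; squares are wild type P30, circles wild type P56 and triangles mutant P56, and short lines are group means. *Tyr* was at 41.7 and 40.01 FPKM in wild type P56 and at 706 and 675 FPKM in mutant libraries, while *Mitf* was at 114 and 113 FPKM in wild type P56 and at 22.9 and 23.9 FPKM in mutant libraries.

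Regulators of the melanocyte lineage did not move with the pigment genes. Of 22 listed, 19 were tested, 2 were higher and 6 lower, with a median of −0.89. *Mitf*, the regulator of the pigment enzymes (ENSMUSG00000035158.15, chromosome 6, 97807052 to 98021349), was at 114 and 113 FPKM in wild type P56, 22.9 and 23.9 FPKM in mutant and 74.9 and 69.0 FPKM in wild type P30 libraries. The wild type mean at P56 was 4.87-fold the mutant mean, a log2 change of −2.24 ± 0.08 (adjusted p = 2e-07), and the mutant was below P30 as well (−1.58 ± 0.08). *Sox10*, the neural crest factor that activates *Mitf*, went the opposite way, from 104 and 101 FPKM to 275 and 248 FPKM (1.34 ± 0.07).

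*Foxd3* and *Zeb1* had the largest falls of the list. *Foxd3*, a repressor of melanocyte fate in the early crest (chromosome 4, 99656299 to 99658622), was at 72.2 and 72.0 FPKM in wild type and at 4.40 and 4.79 FPKM in mutant libraries, a log2 change of −3.71 ± 0.09 (adjusted p = 6.2e-08). *Zeb1*, a driver of epithelial to mesenchymal transition, was at 19.8 FPKM in each wild type library and at 1.96 and 1.51 FPKM in the mutant ones. *Tfap2a*, *Mef2c* and *Pax3*, which act beside MITF, fell by 1.77, 1.40 and 1.21 on the log2 scale. *Lef1*, a nuclear partner of β-catenin, was the other gene to rise, from 14.3 and 15.8 FPKM to 43.6 and 46.5 FPKM. *Kit*, the receptor for stem cell factor, was at 15.4 and 16.2 FPKM in wild type and at 21.1 and 21.4 FPKM in mutant cells, a change of 0.41 ± 0.09 that was under 2-fold.

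Genes of Schwann cells, the glia that share a precursor with melanocytes, split evenly, with 4 of 20 tested higher, 4 lower and a median of −0.45 that turned to 0.21 with a filter of 5 FPKM. Over all genes, 15.8% were higher and 15.4% lower. The myelin gene *Mbp* (21.4 and 20.7 against 1.33 and 0.83 FPKM) fell by 3.42 on the log2 scale. *Mal* and *Pou3f1*, 2 further genes of myelinating cells, fell too, and 4 tested genes of the list passed the filter through wild type libraries alone. *Dhh*, the hedgehog ligand of Schwann cells (2.02 and 1.92 against 16.1 and 14.2 FPKM), *Postn*, *Fabp7* and *Ncam1* rose.

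Of 26 listed genes of the RAS and MAPK core, through which oncogenic NRAS acts, 21 were tested, 1 was higher and 4 were lower, with a median of 0.02, beside 15.8% higher and 15.4% lower over all genes. *Map2k1*, which encodes MEK1, rose from 26.5 and 26.0 FPKM to 79.1 and 78.1 FPKM. *Ptpn11*, the phosphatase SHP2 (30.7 and 29.4 against 4.44 and 4.38 FPKM), the adaptor *Grb2* (55.2 and 58.6 against 18.9 and 21.9 FPKM) and *Rras* fell.

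Transcripts that ERK signalling is known to induce went both ways. Of 28 tested, 9 were higher and 6 lower, with a median of −0.23 that turned to 0.21 with a filter of 5 FPKM, and 2 passed the filter through mutant libraries alone. The feedback inhibitors *Spry4* (0.58 and 0.68 against 5.64 and 5.46 FPKM) and *Dusp6*, a phosphatase of ERK (53.9 and 52.6 against 155 and 156 FPKM), rose by 2.01 ± 0.13 and 1.52 ± 0.08. The ETS factors *Etv1* and *Etv5*, cyclin D1 (*Ccnd1*, 31.0 and 37.2 against 123 and 145 FPKM) and *Hmga2*, a chromatin protein (0.07 and 0.15 against 6.27 and 7.33 FPKM), rose with them. At P30, wild type cells held *Spry4* at 6.18 and 6.20 FPKM and *Etv1* at 21.0 and 23.4 FPKM, levels close to those of the mutant.

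The 6 ERK targets that fell were *Hbegf*, *Fosl1*, *Myc*, *Dusp2*, *Dusp1* and *Egr1*, most of them transcripts that appear within an hour of a stimulus. *Hbegf*, a ligand of the EGF receptor, went from 157 and 154 FPKM to 28.4 and 28.6 FPKM, and *Fosl1*, an AP-1 subunit, from 124 and 114 FPKM to 26.0 and 24.6 FPKM. *Myc* went from 273 and 275 FPKM to 99.3 and 101 FPKM. The call of *Egr1* (−1.09 ± 0.07) was lost under quantile normalization (−0.99).

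Immediate early and heat shock genes were mostly lower among those called. Of 24 tested, 3 were higher and 9 lower, with a median of −0.80. *Fos*, among the most abundant transcripts, was at 11663 and 10688 FPKM in wild type P56, 3171 and 3004 FPKM in mutant and 2179 and 2257 FPKM in wild type P30 libraries. *Klf6*, *Jund* and *Atf3* fell by 2.62, 2.42 and 2.10 on the log2 scale. *Hspa1a*, an inducible heat shock protein 70, rose from 295 and 269 FPKM to 1440.0 and 1335 FPKM, and was higher still at P30 (4142 and 4566 FPKM).

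Among inhibitors of the cell cycle, *Cdkn2b* and *Cdkn1a* changed in opposite directions. *Cdkn2b*, which encodes p15, an inhibitor of CDK4 and CDK6 (ENSMUSG00000073802.4, chromosome 4, 89306299 to 89311039), was at 1.67 and 2.07 FPKM in wild type and at 84.6 and 82.7 FPKM in mutant P56 libraries, 44.7-fold higher (log2 change 4.89 ± 0.11, adjusted p = 4.6e-08). *Cdkn1a*, which encodes p21 (chromosome 17, 29090976 to 29100727), was at 1937 and 1861 FPKM in wild type and at 477 and 454 FPKM in mutant libraries, a log2 change of −2.03 ± 0.08 (adjusted p = 3e-07). *Cdkn2a*, the neighbour of *Cdkn2b* that encodes p16 and p19Arf, was listed at 0 in both wild type P56 libraries and at 0.08 and 0.23 FPKM in the mutant ones, below the filter, and was not tested.

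Of 20 tested CDK inhibitors and tumour suppressors, 4 were higher and 3 lower, with a median of −0.07, beside 15.8% higher and 15.4% lower over all genes. *Lzts1*, a tumour suppressor of mitosis (0.89 and 0.81 against 12.1 and 10.3 FPKM), the phosphatase *Cdkn3* and *Cdkn2c*, which encodes p18, rose beside *Cdkn2b*. *Rassf1* (207 and 192 against 90.4 and 82.0 FPKM) fell beside *Cdkn1a*. The call of *Cdkn2b* and that of *Cdkn1a* held in each fit that left out 1 library.

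Targets of p53 were 5 higher and 4 lower of 22 tested, with a median of 0.39, beside 15.8% higher and 15.4% lower over all genes. *Gtse1*, a regulator of p53 in G2, rose (1.27 and 0.91 against 7.13 and 7.42 FPKM), while *Rrm2b*, a ribonucleotide reductase subunit for DNA repair (17.6 and 16.8 against 1.59 and 1.28 FPKM), and the death receptor *Fas* (43.2 and 40.7 against 6.20 and 5.79 FPKM) fell. Of 21 tested genes of the DNA damage response, 5 were higher and 6 lower, beside the same shares over all genes. Their median was −0.41, and it was −0.08 with a filter of 5 FPKM and −0.63 with a pseudocount of 0.1. *Trp53bp1* and *Rad50*, which act at double-strand breaks, fell by 1.76 and 1.67 on the log2 scale.

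Genes of mitosis rose as a group. Of 44 tested, 36 were higher and none was lower by limma (43 and 0 at an unadjusted p under 0.05 and any fold), with a median of 1.95, and 13 passed the filter through mutant libraries alone. The cyclins of mitotic entry *Ccnb1* (3.60 and 2.60 against 61.2 and 50.4 FPKM) and *Ccnb2* (4.01 and 4.36 against 60.9 and 56.7 FPKM) rose by 3.80 ± 0.15 and 3.53 ± 0.10 (adjusted p = 3.4e-07 and 9.5e-08). *Ube2c*, the ubiquitin-conjugating enzyme of the anaphase-promoting complex, went from 12.4 and 11.6 FPKM to 140 and 133 FPKM. *Racgap1*, a protein of the central spindle, and the kinase *Plk1* (1.46 and 1.38 against 18.4 and 17.5 FPKM) rose by 3.41 and 2.97 on the log2 scale.

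The proliferation marker *Mki67* was low in absolute terms in both genotypes. It was at 0.41 and 0.30 FPKM in wild type P56, 2.59 and 2.75 FPKM in mutant and 0.93 and 1.33 FPKM in wild type P30 libraries, a log2 change of 1.44 ± 0.15 (adjusted p = 5.3e-05) on the FPKM + 1 scale, which understates the change of low genes. Per length, *Ube2c* and *Ccnb2* RNA thus stood far above *Mki67* RNA in the mutant. *Top2a*, the topoisomerase of dividing cells, was at 15.8 and 23.3 FPKM in the mutant and at 3.79 and 5.28 FPKM in wild type P56 cells.

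The cell cycle genes that the study itself names in these melanocytes were 17 of 17 higher, with a median of 2.47. Of the 17, 2 passed the filter through mutant libraries alone. The study chose that list on these samples, so it is not independent evidence of its direction. *Cdca3*, a trigger of mitotic entry, and *Knstrn*, a protein of the kinetochore, were among its largest rises, at 61.3 and 62.6 FPKM and at 37.0 and 37.4 FPKM in the mutant against 6.89 to 7.09 and 4.06 to 4.76 FPKM in wild type P56 cells.

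Genes of DNA replication rose in part. Of 41 tested genes of S phase, 19 were higher and 1 lower, with a median of 0.70 that was 1.07 with a pseudocount of 0.1. Of the 41, 4 passed the filter through mutant libraries alone and 1 through wild type ones. *Rrm2*, the S phase subunit of ribonucleotide reductase (4.71 and 5.07 against 43.8 and 44.4 FPKM), the helicase subunit *Mcm2* (2.53 and 2.36 against 21.99 and 20.5 FPKM), *Uhrf1*, which maintains DNA methylation, and thymidine kinase *Tk1* rose by 2.94, 2.69, 2.56 and 2.19 on the log2 scale. The gene that fell, *Gins2*, had a log2 change of −1.01 ± 0.18 and lost its call without the first mutant library (−0.92), without the first wild type library (−0.83) and with quantile normalization (−0.97).

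**Figure D3:**
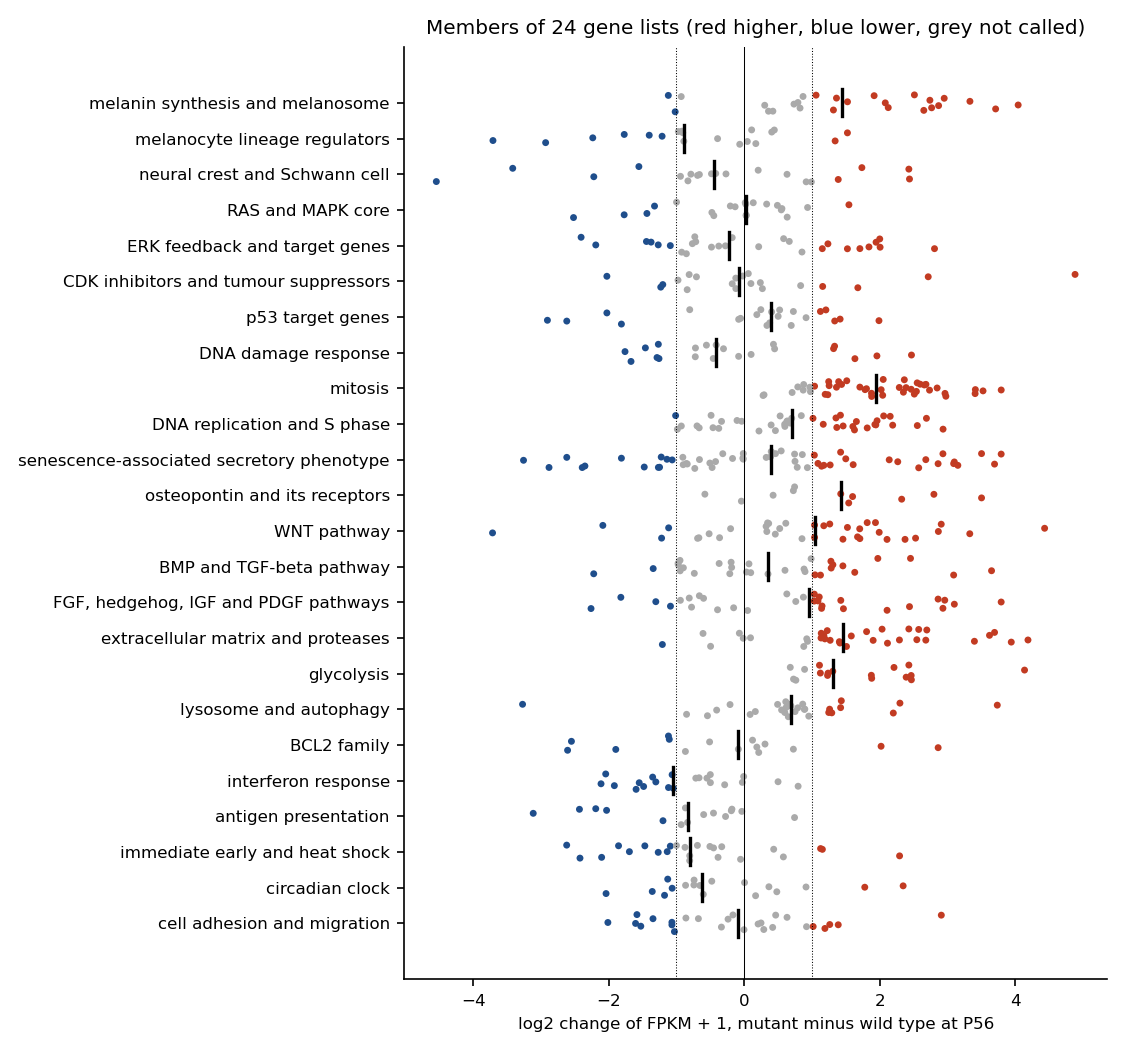
Log2 change of FPKM + 1 (mutant minus wild type P56, horizontal axis) of each tested member of 24 gene lists; red points were called higher, blue lower and grey not called, black bars are list medians and dotted lines mark 2-fold. Mitosis (median 1.95), extracellular matrix (1.46), melanin synthesis (1.44) and glycolysis (1.31) lie to the right, and interferon response (−1.05) and lineage regulators (−0.89) to the left.

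Factors of the SASP went both ways. Of 70 listed, 56 were tested, 20 were higher and 12 lower, with a median of 0.39, and 4 passed the filter through mutant libraries alone and 2 through wild type ones. *Igfbp7*, *Mmp2* and *Spp1* had the largest rises and *Il6* and *Il1b* the largest falls. *Igfbp7*, an IGF-binding protein of the matrix (ENSMUSG00000036256.13, chromosome 5, 77349240 to 77408041), went from 101 and 94.7 FPKM to 1414 and 1328 FPKM, 14-fold (log2 change 3.79 ± 0.08, adjusted p = 3e-08). *Mmp2*, a gelatinase, went from 4.40 and 4.94 FPKM to 74.4 and 70.6 FPKM.

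*Spp1*, which encodes osteopontin, a secreted phosphoprotein that binds CD44 and integrins, was at 22.04 and 16.4 FPKM in wild type and at 234 and 219 FPKM in mutant P56 libraries, with 61.4 and 63.0 FPKM at P30. The rise was 3.50 ± 0.12 on the log2 scale against P56 (adjusted p = 2.3e-07) and 1.85 ± 0.12 against P30. The inflammatory cytokines *Il6* (40.9 and 37.1 against 2.94 and 3.43 FPKM) and *Il1b* (33.8 and 28.9 against 3.76 and 3.02 FPKM) fell by 3.26 ± 0.11 and 2.88 ± 0.15. *Tnf* rose from 1.55 and 1.86 FPKM to 12.5 and 11.6 FPKM. *Il6*, *Il1b* and *Tnf* are also made by myeloid cells, whose markers are given below. The paper places *Spp1* of normal skin mostly in fibroblasts of the dermal papilla, and in nevus skin also in dermal melanocytes. It also reports more osteopontin protein in sorted P56 mutant melanocytes by cytometry and western blot. Cultures of such melanocytes secreted more of it by ELISA. Markers of the dermal papilla are given below as well, and their part in the rise of *Spp1* was not tested.

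Receptors of osteopontin were tested beside it. Of 11 genes for osteopontin and its receptors, 6 were higher and none was lower by limma (9 and 1 at an unadjusted p under 0.05), with a median of 1.43, and 3 passed the filter through mutant libraries alone. The integrin subunits *Itgb5* (6.06 and 5.72 against 49.2 and 45.0 FPKM), *Itgb3* (0.10 and 0.07 against 4.54 and 4.34 FPKM) and *Itga5* (2.57 and 2.80 against 10.6 and 9.80 FPKM) rose. *Cd44* (chromosome 2, 102811141 to 102901665) was at 70.8 and 67.8 FPKM in wild type P56, 115 and 116 FPKM in mutant and 249 and 263 FPKM in wild type P30 libraries, a change of 0.73 ± 0.07 that was under 2-fold. Its P30 level was above that of the mutant.

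The 12 secreted factors that the study names in its mutant melanocytes were all higher in the limma fit, with a median of 2.90, and were also higher than in P30 wild type cells. Of the 12, 2 passed the filter through mutant libraries alone. The list was chosen by the study on these samples and is not independent evidence of its direction. *Wisp1*, a matrix-associated WNT target, had the largest change, from 0.07 and 0.23 FPKM to 25.8 and 22.1 FPKM. The BMP modulator *Fstl1* went from 13.2 and 8.67 FPKM to 142 and 150.1 FPKM. *Bmp4*, a BMP ligand, had the smallest, from 8.96 and 8 FPKM to 25.9 and 24.1 FPKM (1.46 ± 0.12).

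**Figure D4:**
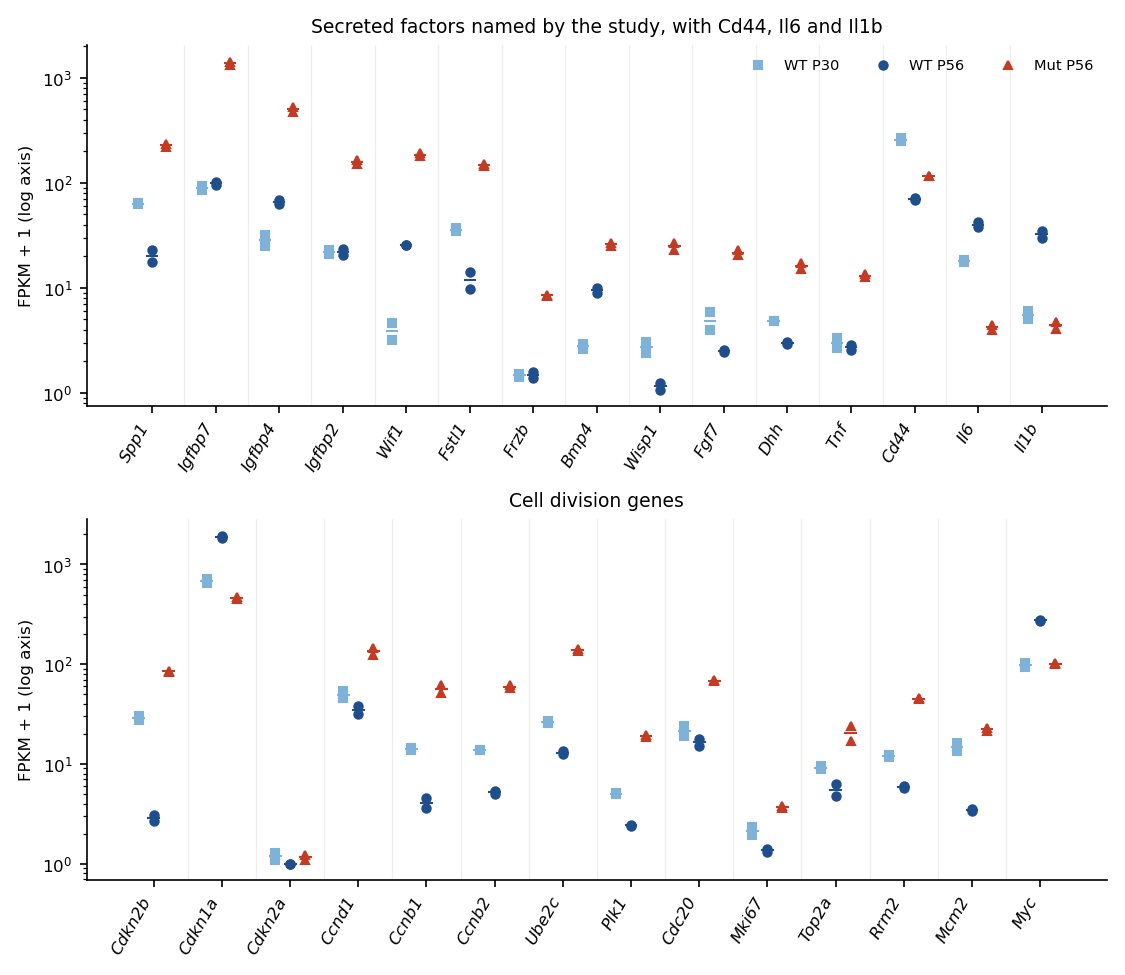
Level (FPKM + 1, log axis) of secreted factors with *Cd44*, *Il6* and *Il1b* (top) and of cell division genes (bottom) in each melanocyte library, with squares for wild type P30, circles for wild type P56, triangles for mutant P56 and short lines for group means. *Igfbp7* reached 1414 and 1328 FPKM and *Spp1* 234 and 219 FPKM in mutant libraries, above both wild type ages, while *Cd44* was highest at P30 and *Cdkn1a*, *Il6* and *Il1b* were highest in wild type P56.

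Genes of the WNT pathway were 19 higher and 4 lower of 36 tested, with a median of 1.04; 4 passed the filter through mutant libraries alone and 2 through wild type ones. The ones that rose included agonists and antagonists. *Rspo1* and *Rspo3*, which amplify WNT signals, went from 2.63 and 2.28 FPKM to 35.5 and 32.1 FPKM and from 2.63 and 3.54 FPKM to 27.4 and 31.7 FPKM. *Wif1*, which binds and blocks WNT ligands, went from 24.5 and 24.3 FPKM to 189 and 180 FPKM and was at 2.17 and 3.58 FPKM at P30. *Frzb*, another antagonist, went from 0.56 and 0.38 FPKM to 7.36 and 7.60 FPKM.

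The 4 WNT genes that fell were *Wnt16*, *Sfrp5*, *Wnt7a* and *Axin2*. *Wnt16*, a ligand, was at 12.7 and 11.6 FPKM in wild type P56 and listed at 0 in the mutant. *Axin2*, a feedback target of WNT signalling, was at 5.14 and 7.18 FPKM against 2.05 and 2.51 FPKM, and its call (−1.11 ± 0.19) was lost without the second wild type library (−0.91). *Rspo3*, *Wif1* and *Fgf7* are also markers of the dermal papilla, whose summed level rose beside them and is given below.

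BMP and TGFβ genes were 11 higher and 2 lower of 31 tested, with a median of 0.35 that was 0.90 with a filter of 5 FPKM. Of the 31, 4 passed the filter through mutant libraries alone and 2 through wild type ones. *Inhba*, the subunit of activin A, went from 7.22 and 6.98 FPKM to 68.9 and 67.3 FPKM, and *Bmp7* from 7.54 and 7.49 FPKM to 47.7 and 43.9 FPKM. *Grem1*, a BMP antagonist, and *Id3*, a target of BMP signalling (2087 and 1934 against 822 and 762 FPKM), fell by 2.22 and 1.34. In wild type P30 cells *Id3* was at 219 and 200.1 FPKM.

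Genes of the FGF, hedgehog, IGF and PDGF pathways were 15 higher and 4 lower of 30 tested, with a median of 0.95. Of the 30, 6 passed the filter through mutant libraries alone and 2 through wild type ones. *Fgf7*, a mesenchymal ligand for keratinocytes (1.46 and 1.56 against 21.8 and 19.4 FPKM), *Hhip*, which binds hedgehog ligands (0.09 and 0.19 against 8.36 and 7.41 FPKM), and *Igfbp4* (67.6 and 61.9 against 530.0 and 474 FPKM) rose by 3.10, 2.96 and 2.93. *Pdgfa*, *Gli2*, *Gli3* and *Pdgfc* fell.

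Extracellular matrix genes were 25 higher and 1 lower of 34 tested, with a median of 1.46, and 4 passed the filter through mutant libraries alone. The type VI collagens *Col6a2* (2.51 and 2.15 against 61.4 and 58.1 FPKM) and *Col6a1* and the proteoglycan *Bgn* (23.6 and 21.9 against 369 and 360 FPKM) rose by 4.19, 3.62 and 3.94. *Timp3*, an inhibitor of matrix proteases, fell from 57.3 and 57.2 FPKM to 24.7 and 23.8 FPKM. Against P30 wild type cells the matrix list was 7 higher and 8 lower, with a median of −0.15. Over all genes, 12% were higher and 9.11% lower against P30. *Col6a1* was at 42.9 and 43.1 FPKM at P30, beside 39.2 and 35.3 FPKM in the mutant. Many of these genes are also fibroblast markers, whose summed level rose in the same direction.

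Glycolysis was another group that rose. Of 17 genes tested, 13 were higher and none was lower by limma (17 and 0 at an unadjusted p under 0.05), with a median of 1.31. *Slc16a3*, which exports lactate (1.59 and 1.17 against 43.8 and 37.98 FPKM), rose by 4.14 ± 0.13 (adjusted p = 1.6e-07). The hexokinase *Hk1* (6.42 and 7.83 against 45.6 and 42.1 FPKM), enolase *Eno1* (237 and 223 against 1303 and 1250.1 FPKM) and pyruvate kinase *Pkm* (246 and 223 against 1331 and 1211 FPKM) rose by 2.47, 2.47 and 2.43. Against P30 wild type cells, 2 of the 17 were higher and none was lower, with a median of 0.70. Over all genes, 12% were higher and 9.11% lower against P30.

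Lysosomal genes, the family from which the melanosome derives, were 8 higher and 1 lower of 29 tested, with a median of 0.69. The cathepsins *Ctsk* (11.7 and 12.2 against 179 and 165 FPKM) and *Ctsd* (302 and 282 against 1524 and 1365 FPKM) and *Glb1*, the β-galactosidase whose activity is used as a stain for senescence (6.07 and 6.40 against 33.8 and 30.9 FPKM), rose by 3.74, 2.30 and 2.20. *Npc1*, a cholesterol transporter, fell from 85.5 and 122 FPKM to 9.77 and 9.61 FPKM.

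Genes of the BCL2 family, which holds protectors from cell death and promoters of it, were 2 higher and 5 lower of 15 tested, with a median of −0.09. Of the 15, 2 passed the filter through wild type libraries alone. *Bcl2l1*, which encodes BCL-XL, rose from 13.5 and 11.7 FPKM to 101 and 95.2 FPKM, and the BH3-only gene *Pmaip1* rose from 1.11 and 1.08 FPKM to 7.05 and 7.99 FPKM. *Mcl1*, another protector, fell from 253 and 285 FPKM to 40.8 and 45.8 FPKM (−2.61 ± 0.09, adjusted p = 1.8e-07). The protector *Bcl2*, the death-promoting *Bik* and the near copies *Bcl2a1b* and *Bcl2a1d* fell as well.

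Many interferon genes were lower. Of 21 tested, 11 were lower and none was higher by limma (16 and 2 at an unadjusted p under 0.05), with a median of −1.05. The GTPase *Irgm1* (197 and 181 against 47.9 and 42.4 FPKM), the ubiquitin-like *Isg15* and the antiviral *Mx1* fell, the first 2 by 2.04 and 1.92. At P30, *Mx1* was at 6.41 and 6.08 FPKM, near its P56 wild type level of 6.62 and 6.31 FPKM. Against P30 the list was 1 higher and 7 lower, beside 12% higher and 9.11% lower over all genes.

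Antigen presentation was 5 lower and none higher of 15 tested by limma (11 and 1 at an unadjusted p under 0.05), with a median of −0.84, and the 5 serve the class II pathway. The invariant chain *Cd74* went from 1324 and 1206 FPKM to 153 and 137 FPKM (log2 change −3.11 ± 0.09, adjusted p = 1.1e-07), and *H2-Eb1*, *H2-Aa* and *H2-Ab1* fell by 2.43, 2.19 and 2.03. The fifth was *H2-DMa*. Class II genes mark antigen-presenting cells, and the myeloid markers *Cd207*, of Langerhans cells (5.44 and 4.89 against 0.04 and 0.08 FPKM), *Lyz2* (488 and 432 against 138 and 133 FPKM) and *S100a8* (172 and 166 against 11.9 and 13.6 FPKM) fell in the same libraries. Of the 12 myeloid markers tested, 5 were lower, 2 higher (*C1qa* and *C1qb*) and 5 not called.

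Circadian clock genes were 2 higher and 5 lower of 18 tested, with a median of −0.63. *Per1*, an inhibitor of the clock, fell from 19.8 and 22.1 FPKM to 4.46 and 4.22 FPKM, and *Clock*, its activator, from 8.57 and 8.25 FPKM to 2.46 and 2.90 FPKM. *Bhlhe41*, a repressor of clock genes, rose from 21.9 and 22.6 FPKM to 111 and 124 FPKM, and *Per3* from 1.97 and 2.17 FPKM to 9.69 and 9.40 FPKM. Adhesion and migration genes were 5 higher and 8 lower of 26, with a median of −0.08, beside 15.8% higher and 15.4% lower over all genes. Of the 26, 2 passed the filter through mutant libraries alone and 5 through wild type ones. *Cdh11*, a mesenchymal cadherin, rose by 2.91, and the guidance factor *Sema3c*, the receptor kinase *Axl* and the integrin *Itga2* fell, the first 2 by 2.01 and 1.58.

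Markers of other skin cells were present in all 6 libraries and differed between the groups. The summed level of 26 melanin and melanosome genes was 9067 and 8699 FPKM in wild type P56, 23541 and 22145 FPKM in mutant and 21294 and 21241 FPKM in wild type P30 libraries, so the labelled cell type was carried by its defining genes in every library. In bulk samples, fewer cells of a type and less RNA per cell cannot be told apart. Keratinocyte markers summed to 5922 and 5508 FPKM in wild type P56, 3217 and 3008 FPKM in mutant and 892 and 943 FPKM in wild type P30 libraries, with 2 of 16 higher (*Krt6a* and *Lor*) and 4 lower. The other 10 were not called, and the median of the 16 was −0.09. At an unadjusted p under 0.05 by limma, 7 lay above and 7 below wild type P56. *Krt6a* rose from 11.8 and 10.8 FPKM to 27.6 and 25.5 FPKM. Among the 4 that fell, the bulge keratin *Krt15* went from 1468 and 1379 FPKM to 212 and 205 FPKM, *Krt14*, of basal keratinocytes, from 2142 and 1943 FPKM to 801 and 721 FPKM, and *Col17a1*, of their hemidesmosomes, from 45.0 FPKM in each to 7.58 and 7.01 FPKM.

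Genes of the hair shaft and inner root sheath, most of them keratins made in growing follicles, went the other way. Of 15 tested, 14 were higher, with a median of 3.92. Of the 15, 3 passed the filter through mutant libraries alone. The listed genes summed to 66.8 and 62.9 FPKM in wild type P56, 1174 and 1108 FPKM in mutant and 108 and 110 FPKM in wild type P30 libraries. *Krt35* of the hair cortex went from 18.4 and 16.9 FPKM to 377 and 356 FPKM, and *Krt71* of the inner root sheath from 3.74 and 3.90 FPKM to 142 and 129 FPKM. In wild type P30 libraries *Krt35* was at 18.7 and 17.6 FPKM.

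Mesenchymal markers rose too. Fibroblast markers were 10 of 12 higher, and 2 of the 12 passed the filter through mutant libraries alone. The fibroblast sums were 202 and 191 FPKM in wild type P56, 881 and 863 FPKM in mutant and 1371 and 1390 FPKM in wild type P30 libraries. *Col1a1*, of type I collagen, was at 13.4 and 12.7, 148 and 147, and 328 and 352 FPKM in the same order, and *Mfap5*, a microfibril protein, at 5.09 and 3.02, 113 and 103, and 12.2 and 11.3 FPKM. Dermal papilla markers were 7 of 10 higher, and 5 of the 10 passed the filter through mutant libraries alone, with sums of 110 and 104 FPKM in wild type P56, 395 and 384 FPKM in mutant and 54.2 and 51.2 FPKM in wild type P30 libraries. *Corin*, a protease of the dermal papilla, was at 0.15 and 0.13 FPKM in wild type and at 10.2 and 11.2 FPKM in mutant P56 cells.

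Of 7 mural and muscle markers tested, 2 were higher and 4 lower, with a median of −1.18, and 2 passed the filter through wild type libraries alone. *Acta2*, the actin of smooth muscle and of the dermal sheath, rose from 27.4 and 28.2 FPKM to 513 and 467 FPKM, and *Tagln* from 5.90 and 5.46 FPKM to 30.8 and 28.2 FPKM. *Acta1* and *Ckm*, of skeletal muscle, fell from 364 and 337 FPKM to 107 and 85.9 FPKM and from 112 and 106 FPKM to 26.3 and 23.4 FPKM, while wild type P30 libraries held 3.20 to 4.22 and 0.65 to 0.81 FPKM. *Des*, of muscle filaments (13.5 and 12.5 against 4.58 and 4.84 FPKM), and *Rgs5*, of pericytes (1.83 and 1.56 against 0.10 and 0.28 FPKM), were the others to fall.

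Many markers of blood-borne and vascular cells were lower in the mutant than in wild type P56 cells. Myeloid markers were 5 of 12 lower and 2 higher (*C1qa* and *C1qb*, of tissue macrophages), with sums of 789 and 720 FPKM in wild type P56, 258 and 249 FPKM in mutant and 345 and 356 FPKM in wild type P30 libraries. Mast cell markers were 5 of 5 lower (sums of 24.2 and 24.6 against 3.74 and 3.39 FPKM, with 2.83 and 1.2 FPKM at P30). Of these 5, 3 passed the filter through wild type libraries alone. Erythroid and platelet markers were 4 of 5 lower (126 and 133 against 30.2 and 28.9 FPKM, with 117 and 86.4 FPKM at P30). Endothelial markers were 3 of 9 lower (110 and 97.7 against 52.4 and 46.5 FPKM, with 20.6 and 12.5 FPKM at P30). Against P30 wild type cells, 5 of the 9 endothelial markers were higher and none was lower, beside 12% and 9.11% over all genes. Of the 9 endothelial markers, 3 passed the filter through wild type libraries alone and 1 through mutant ones. The globin genes *Hba-a1* and *Hba-a2*, and *Hbb-bs* and *Hbb-bt*, are pairs of near copies. Lymphocyte markers summed to 7 and 6.17 against 8.70 and 8.71 FPKM, with 1 of 5 tested higher (*Klrb1c*), and adipocyte markers were 1 higher and 1 lower of 5. Of 4 sex-linked genes tested, 1 was lower (*Kdm5d*). The part of other cell types in the changes described above was not tested.

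**Figure D5:**
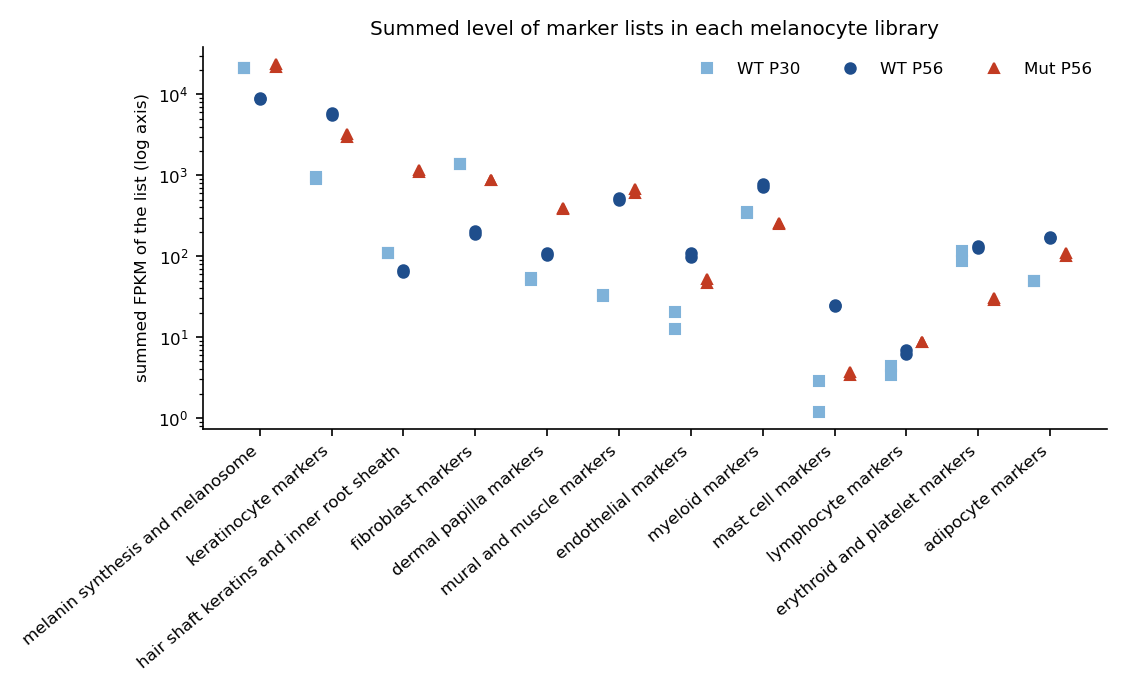
Summed FPKM (log axis) of marker lists in each of the 6 melanocyte libraries, with squares for wild type P30, circles for wild type P56 and triangles for mutant P56. Pigment genes give the highest sums, 23541 and 22145 FPKM in mutant and 9067 and 8699 FPKM in wild type P56 libraries. Hair shaft and inner root sheath genes stand at 1174 and 1108 FPKM in the mutant against 66.8 and 62.9 FPKM.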

How the data were processed

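RNA was measured by Smart-seq2, which keeps no strand, in sorted melanocytes. The authors aligned reads with STAR 2.4.2 to mm10 with GENCODE vM8 genes and deposited FPKM values from RSEM; read counts were not used here, so the exact test for counts in the study's methods was replaced by limma 3.58.1 (R 4.3.3, trend) on log2(FPKM + 1). One mean per group was fitted to all 6 melanocyte libraries, which share the estimate of the spread. Genes and overlapping antisense genes cannot be told apart. The study's methods call the sorted samples biological replicates and give a larger number of them than the 2 libraries per group used here, without tying a library to a mouse; p-values measure the spread between libraries, which may be technical. P-values were Benjamini-Hochberg adjusted over the 12440 genes, two-sided; SE is the moderated standard error. The 5 other tables of the series were not used. In the symbol column, 24 names that a spreadsheet had turned into dates were restored from gene identifiers.

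The text names the 12 largest rises and falls among called genes that reached a mean of 5 FPKM in one genotype and whose libraries did not overlap between genotypes, 2 to 4 members of each of 38 lists (784 genes), and a short set of genes central to the study; other genes named or drawn were chosen after their values were seen. Members and lists were chosen with earlier results of these data known. Positions are from GENCODE vM21 and promoters from RefSeq, both on GRCm38. Scripts were tested on simulated data. Alternatives were other scalings, filters and pseudocounts, a replicate block, other sets of libraries and leaving out each library. Some genes are not reported here.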

Additional observations from a re-analysis of the deposited data

Results flagged for a closer look

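Long non-coding RNAs were outside the main comparison. Of 728 tested, 59 were higher (8.10%) and 203 lower (27.9%) in the mutant, beside 15.8% and 15.4% of protein-coding genes. RNA other than protein coding held 5.97% and 6.09% of FPKM in wild type P56 and 1.56% and 1.59% in mutant libraries. *Malat1* alone made up most of that share in wild type P56 libraries. The largest change among long non-coding RNAs with a mean of 5 FPKM or more in one genotype was a fall, that of *Gm20186* from 53.6 and 56.4 FPKM to 1.63 and 0.72 FPKM. The 3 largest rises were picked out because they stood above the wild type P56 level. *Gm16010* had a mean of 8.39 FPKM in the 2 mutant libraries and 0.275 FPKM in the 2 wild type P56 libraries, *Snhg7os* 32.02 against 2.84 FPKM and *Gm20659* 52.91 against 2.23 FPKM. In wild type P30 libraries *Gm16010* was at 6.64 and 8.94 FPKM, near the mutant. *Snhg7os* was at 11.86 and 13.8 FPKM there and *Gm20659* at 3.49 and 4.48 FPKM. These 3 are antisense genes, and with unstranded libraries their reads cannot be told apart from those of overlapping genes.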

How the results depend on the processing

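The count of called genes, 3876 with the settings described, was 3831 with TMM scaling, 3911 with quantile normalization, 3081 with a filter of 5 FPKM, 3892 with none, 4368 and 4745 with pseudocounts of 0.5 and 0.1, 3873 without the variance trend, 3877 from the 4 P56 libraries alone and 4138 with long non-coding genes added. It rose to 8916 with no fold threshold, which admits genes under 2-fold, and was 3825 to 3944 when 1 P56 library was left out. With the replicate number as a block it was 3875; deviations of libraries with the same number correlated at −0.00098, −0.012 and 0.058, so the numbers were not taken as pairs. Over 213 genes followed through these settings, no change reversed and 7 called genes lost the call in at least 1 setting: *Axin2*, *Dtnbp1*, *Egr1* and *Gins2*, with the values given above, *Pdgfc* and *Cfd* without the second mutant library (−0.95 and −0.998) and *Bcl2a1b* without the first wild type library (−0.98). The cause of the lost calls was not tested. Many of the 213 genes had been picked for large changes in these same data, so few were free to reverse. Of 531 list medians under these settings, 9 changed sign, 2 of which were over 0.1 from 0 (Schwann cell genes and ERK targets, with the filter of 5 FPKM), and medians within 0.1 of 0 give no direction. Depth is unknown, so a level near 0 does not show that a transcript is absent.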
